A study of Homo sapiens with 8 samples.

Results

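The binding of HIF-1β, the subunit shared by the HIF transcription factors, was examined at 7 genes of lipid storage and sterol handling: HILPDA, PLIN2, LPIN1, SCARB1, INSIG1, INSIG2 and VLDLR. They were chosen by name, with earlier results of these data known. For each gene, the peaks that overlapped its body extended by 25 kb on each side were taken on GRCh37 (hg19). These are 7 of the 20136 protein-coding genes of the annotation. HIF-1β ChIP-seq was available from 4 established cancer cell lines with 2 replicates of each: PC-3 (prostate), T47D (breast), A549 (lung) and HCT-116 (colorectal). All 8 libraries came from cells exposed to 0.5% oxygen over 16 h and carried no other treatment, and neither a normoxic nor a control library was analysed here. Nothing in the labels says whether replicates came from separate cultures, so their spread may be technical. The identity of the lines cannot be checked in lists of HIF-1β peaks.

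HIF is a dimer of an oxygen-regulated α subunit and HIF-1β, and it binds DNA at a short core motif, ACGTG or GCGTG. Hypoxic cells commonly store fatty acids as triglyceride in lipid droplets, organelles with a coat of proteins around a core of neutral lipid. Sterol synthesis needs much oxygen, and it is controlled by SREBP transcription factors, which are held in the endoplasmic reticulum by INSIG proteins when sterols are plentiful. Among the 7 genes, HILPDA encodes an inhibitor of the triglyceride lipase on lipid droplets, PLIN2 a droplet coat protein and LPIN1 a phosphatase that makes the diacylglycerol used for triglyceride. SCARB1 is a receptor for high-density lipoprotein, VLDLR a receptor for triglyceride-rich lipoprotein, and INSIG1 and INSIG2 are the retention proteins of SREBP.

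The deposited lists held between 1042 and 3790 peaks, each with an interval and a score. The score is not defined in the lists and was taken to rise with the strength of the call. Depth is unknown, as reads are not part of the lists. Since scores of different libraries share no scale, the rank of each score within its list is given as a percentage of the list, where a low percentage means a strong peak. A region where peaks of both replicates of a line overlapped by at least 1 bp was counted as a site of that line, and sites of different lines that overlapped were joined into regions.

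Of the 7 genes, 5 had a site in each of PC-3, T47D and A549 cells, and HCT-116 cells had a site at 4. By the same rule, the share of all protein-coding genes was 7.08% for PC-3, 16.0% for T47D, 6.02% for A549 and 14.2% for HCT-116. HILPDA, PLIN2, SCARB1 and INSIG2 had a site in all 4 lines, as did 2.46% of all protein-coding genes. VLDLR had a site in 3 lines, and LPIN1 and INSIG1 had none. At least 1 line had a site at 5 of the 7 genes and at 24.4% of all genes. The 7 genes were chosen with earlier results of these data known, so these shares describe them and are not a test. Each gene was searched over its own length, which gave windows from 52.6 kb at HILPDA to 199.8 kb at LPIN1, so the widest window was one of the 2 without a site.

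**Figure D1:**
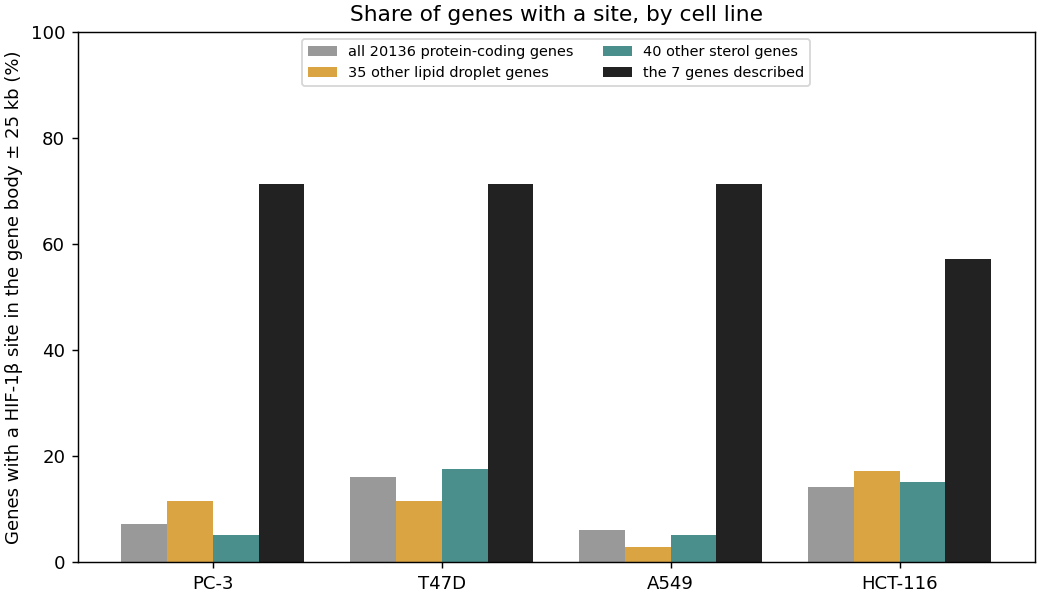
Percentage of genes with a HIF-1β site within the gene body extended by 25 kb in each cell line, for all 20136 protein-coding genes, 35 other lipid droplet genes, 40 other sterol genes and the 7 genes described. The 7 genes, chosen with earlier results of these data known, stand at 5 of 7 in 3 lines and 4 of 7 in HCT-116 cells. All genes lie between 6.02% and 16.0%.

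The bound genes held 9 regions. Of these, 3 had a site in all 4 lines, 2 in 3 lines, 1 in 2 lines and 3 in a single line. Over the 3840 regions of the whole series, 6.04% had a site in 4 lines and 68.2% in a single line. Of the 9 regions, 4 covered the canonical transcription start of a coding gene, 1 each at HILPDA, PLIN2, INSIG2 and VLDLR. Over all regions of the series this share was 38.1%. The other regions of PLIN2 lay upstream. At SCARB1 no region covered the start of a protein-coding transcript, and the shared region lay in intron 1.

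**Figure D2:**
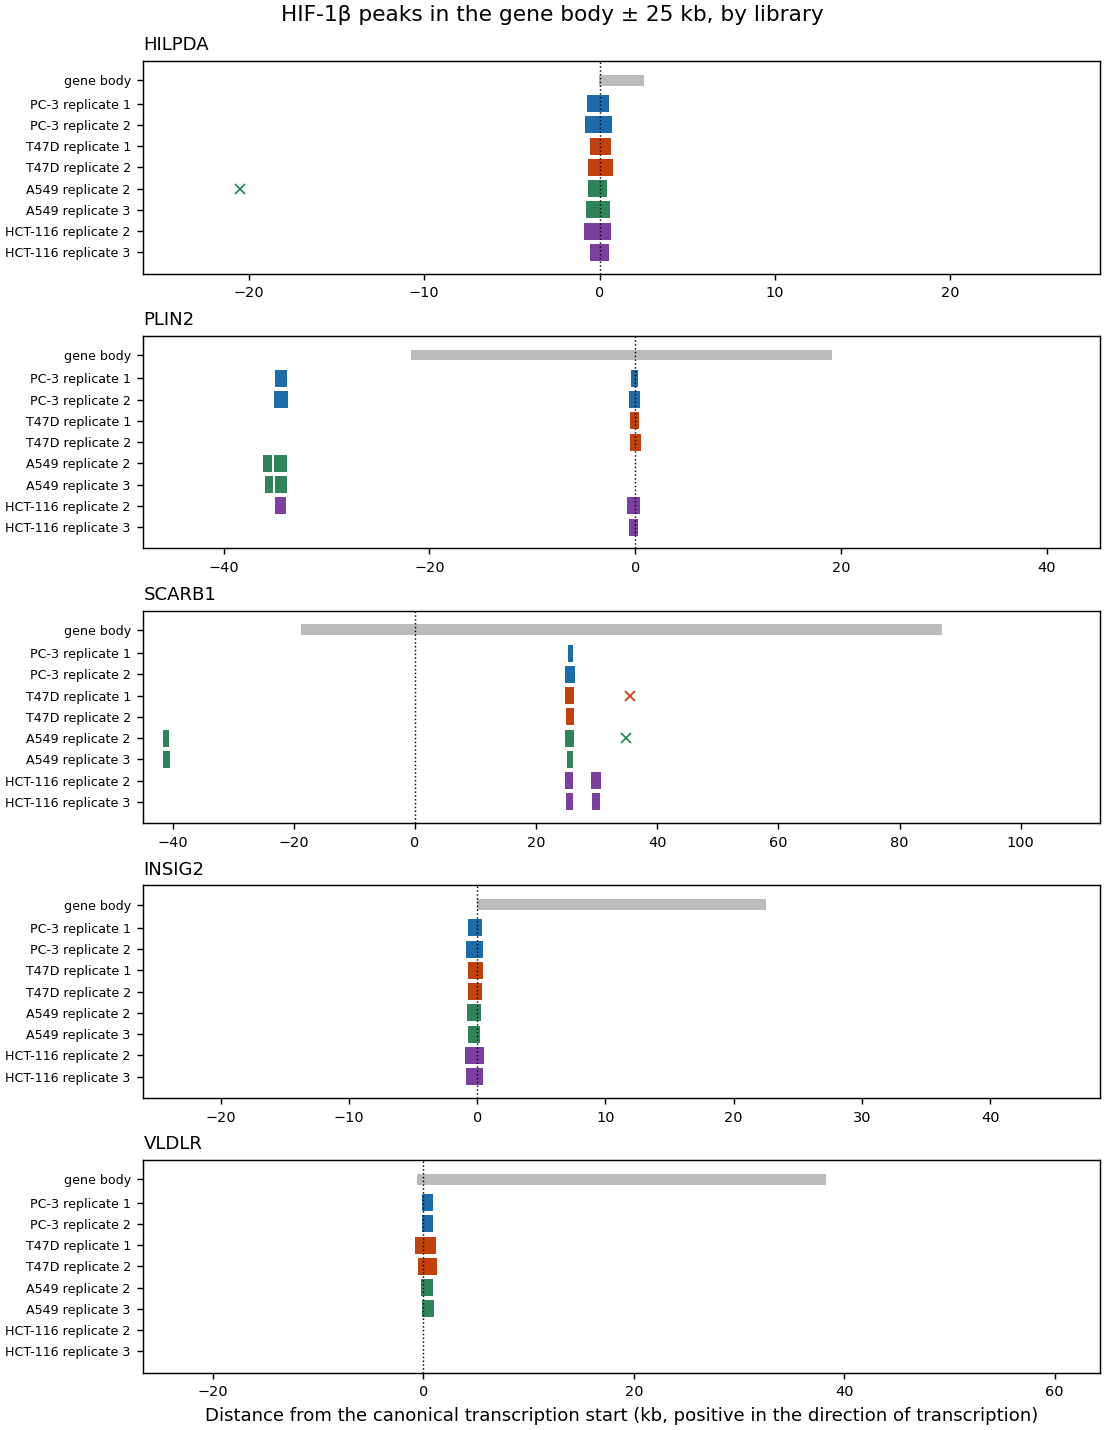
Position of every HIF-1β peak at the 5 bound genes, with distance from the canonical transcription start in kb on the horizontal axis and 1 row per library. Bars are peaks of regions with a site, crosses are the centres of peaks outside them, and the grey bar is the gene body. The regions of HILPDA, INSIG2 and VLDLR lie at the start, those of PLIN2 at the start and about 34 kb upstream, and those of SCARB1 inside the gene and 41 kb upstream, while a peak of A549 replicate 2 alone lies at -20493 bp from the HILPDA start.

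The reference sequence at the main regions is given here because it is the DNA on which the peaks of several libraries coincide. Each is 200 bases of the plus strand of GRCh37 from the part common to all peaks of the sites, outside annotated untranslated exons, placed to hold the most core motifs, so the number of motifs in a stretch is not itself a result. Capitals mark ACGTG or GCGTG on the plus strand and CACGT or CACGC where the match is on the minus strand. The palindrome CACGTG matches on both strands and counted as 2. The stretch from the INSIG1 promoter, upstream of its first annotated start, is given for comparison with INSIG2, since no library had a peak there. Both ACGTG matches of the INSIG2 promoter, at -93 bp and 106 bp from its start, lie outside the printed INSIG2 stretch.
HILPDA promoter, chr7:128095703-128095902: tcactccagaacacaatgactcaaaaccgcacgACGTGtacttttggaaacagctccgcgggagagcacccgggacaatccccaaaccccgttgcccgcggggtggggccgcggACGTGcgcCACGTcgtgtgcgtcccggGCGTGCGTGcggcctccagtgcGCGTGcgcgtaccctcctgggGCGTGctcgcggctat
INSIG2 promoter, chr2:118845727-118845926: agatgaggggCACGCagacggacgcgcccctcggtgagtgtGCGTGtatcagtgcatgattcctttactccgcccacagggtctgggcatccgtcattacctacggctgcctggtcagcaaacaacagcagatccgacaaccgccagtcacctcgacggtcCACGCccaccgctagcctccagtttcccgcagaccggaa
INSIG1 promoter, chr7:155089286-155089485: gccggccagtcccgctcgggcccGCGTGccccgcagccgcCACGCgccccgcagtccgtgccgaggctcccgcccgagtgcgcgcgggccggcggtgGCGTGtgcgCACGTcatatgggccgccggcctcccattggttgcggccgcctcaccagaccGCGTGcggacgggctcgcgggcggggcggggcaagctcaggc
PLIN2 promoter, chr9:19127491-19127690: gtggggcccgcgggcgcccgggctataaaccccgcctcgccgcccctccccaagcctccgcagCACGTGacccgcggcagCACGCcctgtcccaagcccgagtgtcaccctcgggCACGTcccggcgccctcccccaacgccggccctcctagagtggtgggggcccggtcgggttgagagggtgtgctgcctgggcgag
PLIN2 upstream region, chr9:19161829-19162028: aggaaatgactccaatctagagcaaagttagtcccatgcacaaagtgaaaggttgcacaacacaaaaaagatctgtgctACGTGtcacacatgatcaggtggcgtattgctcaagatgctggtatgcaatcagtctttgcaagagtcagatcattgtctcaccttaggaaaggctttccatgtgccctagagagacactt
SCARB1 intronic region, chr12:125322847-125323046: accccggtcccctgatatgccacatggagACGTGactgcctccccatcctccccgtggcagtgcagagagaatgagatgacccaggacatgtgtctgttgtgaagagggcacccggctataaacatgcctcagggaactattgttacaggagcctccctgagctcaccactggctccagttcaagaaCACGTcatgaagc
VLDLR intron 1 end of the region, chr9:2622474-2622673: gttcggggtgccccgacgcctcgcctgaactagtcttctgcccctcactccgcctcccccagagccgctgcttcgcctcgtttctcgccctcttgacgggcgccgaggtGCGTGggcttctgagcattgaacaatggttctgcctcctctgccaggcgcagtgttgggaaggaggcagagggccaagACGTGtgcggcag

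HILPDA (ENSG00000135245.10_7, chr7:128095903-128098472, plus strand) had the narrowest range of ranks among the 3 regions with a site in all 4 lines. A single region from 128095072 to 128096702 on chromosome 7 covered its start, with its centre at -45 bp from the canonical start, and all 8 libraries had a peak there. The score was 422 in replicate 1 and 792 in replicate 2 of PC-3 cells, and 603 and 740 in those of T47D cells. It was 1010 in replicate 2 and 614 in replicate 3 of A549 cells, and 1233 and 842 in those of HCT-116 cells. These peaks lay within the first 7.20% of every list. The rank ran from 1.87% in A549 replicate 2 to 7.20% in PC-3 replicate 1. As a percentage of the list, A549 cells overlapped with each of the other lines and T47D with PC-3 cells, whereas HCT-116 cells, at 2.08% and 3.08%, overlapped with neither T47D nor PC-3 cells. The part common to all peaks was 1013 bp long. The printed stretch holds 7 matches, which run from the distal ACGTG at -194 bp to GCGTG at -43 bp. Within 500 bp of the start HILPDA had 14 matches to the core motif, more than 99.8% of the promoters of protein-coding genes, of which 86.6% had at least 1. Replicates overlapped by 72.7% to 85.9% of the longer peak, and the score ratio between them was highest in PC-3 cells, at 1.88.

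INSIG2 (ENSG00000125629.16_7, chr2:118846028-118868573, plus strand) was also bound at its start in all 8 libraries, with a different order of the lines. The region ran from 118845080 to 118846552 on chromosome 2, with its centre at -231 bp from the start. The score was 299 and 410 in replicates 1 and 2 of PC-3 cells and 194 and 227 in those of T47D cells. It was 174 and 127 in replicates 2 and 3 of A549 cells and 1052 and 442 in those of HCT-116 cells. As a percentage of the list, the rank was 2.45% and 7.27% in HCT-116 cells, 7.37% and 10.8% in PC-3 cells, 15.7% and 14.7% in T47D cells, and 26.8% and 36.3% in A549 cells. The 4 lines did not overlap in this percentage, though the nearer replicates of HCT-116 and PC-3 cells differed by less than the replicates of either line. By rank itself, T47D cells at 480 and 429 overlapped with A549 cells at 474 and 461, whereas the peaks of HCT-116 cells at 93 and 139 were interleaved with the rank of 113 in PC-3 replicate 1. The INSIG2 promoter had 5 matches within 500 bp of its start, 2 of them ACGTG, which is more than 77.4% of promoters. The replicate peaks were centred 13 to 28 bp apart in the 4 lines.

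INSIG1 (ENSG00000186480.13_9, chr7:155089486-155101945, plus strand), the paralogue of INSIG2, had no peak of any library within 25 kb of its body. Its promoter had 9 matches within 500 bp of its start, 3 of them ACGTG, more than 97.3% of promoters. The GC content of this stretch was 77.6%, against 61.2% at INSIG2, and the promoters compared were not matched for it. The nearest region lay outside the window, from 155000366 to 155001728 on chromosome 7, with its centre at -88.5 kb from the INSIG1 start. It was looked at after the window was found empty. INSIG1 had the nearest start of a coding gene to the peaks of this region, and PC-3, A549 and HCT-116 cells each had a site there. The rank of its peaks was 3.67% and 9.83% in the replicates of HCT-116 cells, with scores of 801 and 359. It was 35.6% and 18.3% in PC-3 cells and 80.9% and 66.1% in A549 cells. As at INSIG2, HCT-116 cells ranked highest and A549 cells lowest of these 3 lines, with no overlap between them. In T47D cells the nearest site to INSIG1 was 1841 kb away.

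PLIN2 (ENSG00000147872.10_9, chr9:19108373-19149288, minus strand) was a gene at which the lines had sites called at different regions. At its start, a region from 19126905 to 19128317 on chromosome 9 was a site of PC-3, T47D and HCT-116 cells and had no peak in either library of A549 cells. The scores were 64.0 and 69.5 in PC-3 cells, 51.74 and 60.02 in T47D cells, and 75.0 and 75.6 in HCT-116 cells. These were weak peaks, near the score of 50 at which the lists begin. They ranked at 62.8% to 66.0% in HCT-116 cells, 67.0% to 73.9% in PC-3 cells and 79.9% to 95.3% in T47D cells, an order in which PC-3 cells differed from both neighbours by less than their own replicates did. A second region, from 19161193 to 19162569 with its centre at -34391 bp from the canonical start, was a site of PC-3 and A549 cells. Its centre lay at -12605 bp from the nearest start of a protein-coding PLIN2 transcript, and PLIN2 had the nearest canonical start of all coding genes. The scores here were 537 and 485 in replicates 2 and 3 of A549 cells, and 132 and 291 in replicates 1 and 2 of PC-3 cells. A549 cells had this peak at 6.79% and 6.30% of the list and PC-3 cells at 32.3% and 11.3%, with no overlap between the lines. HCT-116 replicate 2 had a peak of score 56.0 at the same place, at 89.6% of its list, and replicate 3 and both libraries of T47D cells had none. A further region, from 19162651 to 19163650, was a site of A549 cells alone, with scores of 296 and 368 at 14.3% and 9.61% of the lists. PC-3 cells thus had a site at both the start and the upstream region, A549 cells upstream only, and T47D and HCT-116 cells at the start only. As the peaks at the start were near the score limit, their absence in A549 cells cannot be told from binding too weak to be called. The sequences differ as well. The central 500 bp had a GC content of 75.4% at the start and 39.6% at the upstream region, which is higher than 97.1% and 4.01% of all regions, respectively. The start had 5 matches to the core motif in that stretch, including the palindrome CACGTG in the printed sequence, and the upstream region had 1, an ACGTG near the centre of the peaks.

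SCARB1 (ENSG00000073060.17_16, chr12:125261402-125367214, minus strand) was bound away from its start. The region common to all 4 lines ran from 125322050 to 125323695 on chromosome 12, within intron 1, with its centre 25537 bp from the canonical start. The score was 206 and 690 in replicates 1 and 2 of PC-3 cells and 542 and 579 in those of T47D cells. It was 1219 and 941 in replicates 2 and 3 of A549 cells and 752 and 267 in those of HCT-116 cells. The rank was 1.64% and 2.36% in A549 cells, ahead of all other libraries. T47D cells stood at 3.79% and 4.47%, and PC-3 cells at 17.8% and 3.77% and HCT-116 cells at 3.85% and 14.4% overlapped with them. The printed stretch holds both matches of the part common to all peaks, each of them ACGTG. Within 500 bp of its start, SCARB1 had 2 matches and no ACGTG. Beyond this region the lines differed. HCT-116 cells had a further site in intron 1, from 125317720 to 125319274, whose score was 423 for replicate 2 but 90.8 for replicate 3, the largest ratio between replicates at any of these sites, 4.66. A549 cells had a site from 125388842 to 125390022, with scores of 120 and 154, whose centre was at -41022 bp from the SCARB1 start. Deeper in the gene, T47D replicate 1 and A549 replicate 2 had overlapping peaks with scores of 57.3 and 66.5, which were in a single replicate of each line and gave no site.

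VLDLR (ENSG00000147852.17_14, chr9:2621182-2660056, plus strand) was bound at its start in 3 lines. The region ran from 2620978 to 2623045 on chromosome 9, with its centre 225 bp from the canonical start in exon 1, and it also lies on the antisense gene VLDLR-AS1. The scores were 308 and 277 in replicates 1 and 2 of T47D cells, 111 and 132 in those of PC-3 cells, and 125 and 104.9 in replicates 2 and 3 of A549 cells. T47D cells stood highest at 8.20% and 11.7% of the lists, without overlap with PC-3 cells at 40.2% and 30.02% or A549 cells at 37.6% and 45.3%, and the last 2 lines overlapped. The peaks of T47D cells were 2006 and 1749 bp wide, and those of the other lines between 1049 and 1206 bp. Neither library of HCT-116 cells had a peak in the window, and the nearest site of that line was 1868 kb from the start. The central 500 bp of the region held a single match, an ACGTG in exon 1, and none lay in the central 200 bp. This match was 5 bp from the centre of the part common to all peaks, since the region extends further upstream in T47D cells. It is not in the printed stretch, which lies in intron 1.

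LPIN1 (ENSG00000134324.12_15, chr2:11817721-11967535, plus strand) had no peak of any library in the widest of the windows. The canonical start, used for the values below, was at 11886758, inside a gene body that begins at 11817721. Within 500 bp of this start there were 3 matches, the median of all promoters, and other starts of the gene were not counted. The nearest sites were 206 kb from its start in T47D cells, at GREB1, 263 kb in HCT-116 cells, 356 kb in A549 cells and 823 kb in PC-3 cells, and other genes had nearer starts to each of them.

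**Figure D3:**
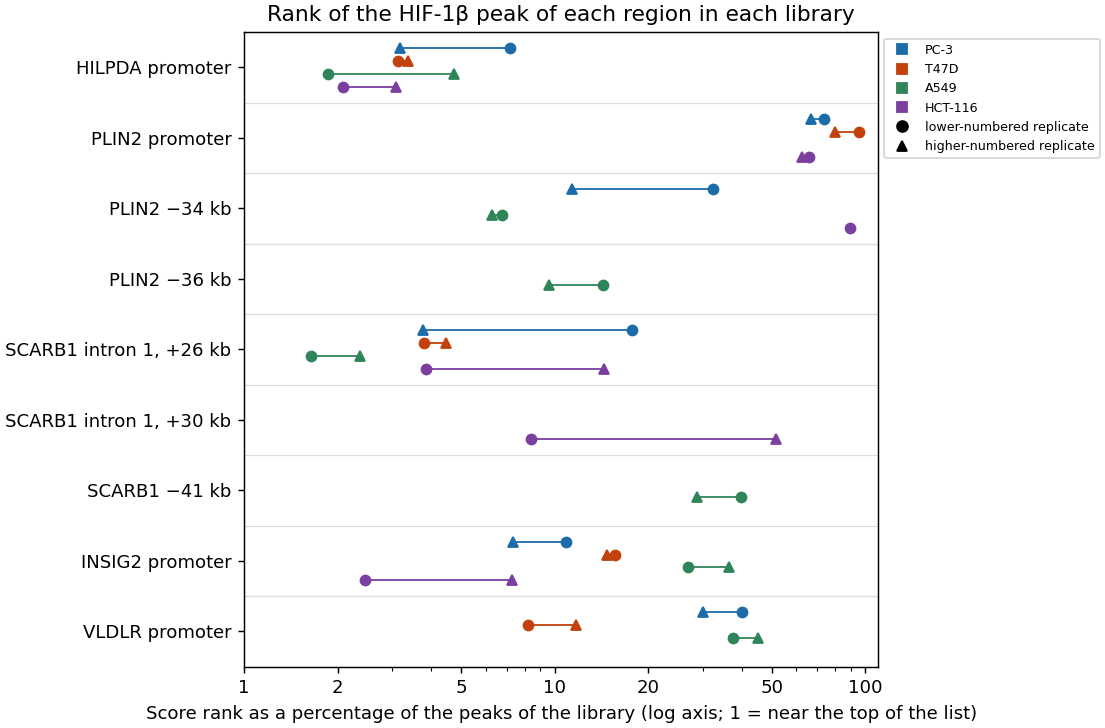
Rank of the peak at each region as a percentage of the peaks of its library, on a log axis, coloured by line, with a circle for the lower-numbered and a triangle for the higher-numbered replicate joined by a line. The 8 libraries lie between 1.87% and 7.20% at HILPDA, and the PLIN2 start lies at 62.8% or beyond in every library that has it. At INSIG2 the lines do not overlap in this percentage, but HCT-116 replicate 3 at 7.27% and PC-3 replicate 2 at 7.37% nearly touch.

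Whether libraries of different lines differed more in rank than libraries of the same line was tested against every possible pairing of the 8 libraries (one-sided exact permutation test). The test used the highest-scoring peak of each gene window and was run on the 502 protein-coding genes with a peak in all 8 libraries, among them HILPDA, PLIN2, SCARB1 and INSIG2. At PLIN2 the mean difference within lines was 10.0 percentage points, against 42.3 over all pairings, and the line-wise pairing gave the smallest difference of any (exact permutation test, p = 0.0095, the smallest possible, Benjamini-Hochberg adjusted p = 0.11 over the 502 genes). The highest peak of PLIN2 was the upstream one in PC-3 and A549 cells and that at the start in T47D and HCT-116 cells, so this difference is also one of position. INSIG2 had 4.65 percentage points within lines against 13.0 over all pairings (exact permutation test, p = 0.0095, adjusted p = 0.11). For HILPDA, with 1.998 against 1.82 percentage points, and SCARB1, with 6.46 against 6.26, no larger difference between lines than between replicates was detected (exact permutation test, p = 0.60 and 0.26, adjusted p = 0.64 and 0.34). None of the 502 genes passed an adjusted p of 0.05 (0%), and 162 of them (32.3%) had an unadjusted p under 0.05, as PLIN2 and INSIG2 did. The smallest adjusted p of any gene was 0.11. As the exact permutation test could not give a p below 0.0095, an adjusted p under 0.05 needed many genes at that smallest value together. PLIN2 and INSIG2 were already at it, so their adjusted p depended on the other genes. The lack of genes under 0.05 therefore cannot decide whether the lines differed at these 2 genes. The lists differ in length within lines, from 1042 to 2891 peaks in PC-3 cells, which moves these percentages.

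A site required overlapping peaks of both replicates, so agreement in position was partly built in, and the values here only describe it. Over the 23 sites of the 9 regions in single lines, the overlap was between 58.0% and 99.8% of the longer peak, with a median of 84.2%. The centres of the replicate peaks were 1 to 190 bp apart, with a median of 34 bp. Over all sites of a line, the median overlap was between 76.0% and 85.5% and the median distance of centres between 70 and 83 bp. Of the 23 sites, 14 exceeded the median overlap of their line and 15 had nearer centres than its median. Beyond the sites of their line, 4 peaks of single libraries lay in the windows of HILPDA, PLIN2 and SCARB1, with scores from 55.0 to 66.5 and ranks from 71.8% to 89.6%.

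All 9 regions had the core motif in their central 500 bp, as had 87.2% of all 3837 regions on the main chromosomes. ACGTG was present in all 9 and in 65.0% of all regions. The number of matches was 8 at HILPDA, 5 at the PLIN2 start, 4 at INSIG2 and at the region upstream of SCARB1, and 3 or fewer at the others, with a median of 2 over all regions. HILPDA had more than 97.4% of them, while the PLIN2 upstream region and VLDLR had more than 12.8%. The regions in intron 1 of SCARB1 and upstream of PLIN2, with ranks as high as 1.64% and 6.30%, therefore had fewer matches than the weakly bound start of PLIN2.

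**Figure D4:**
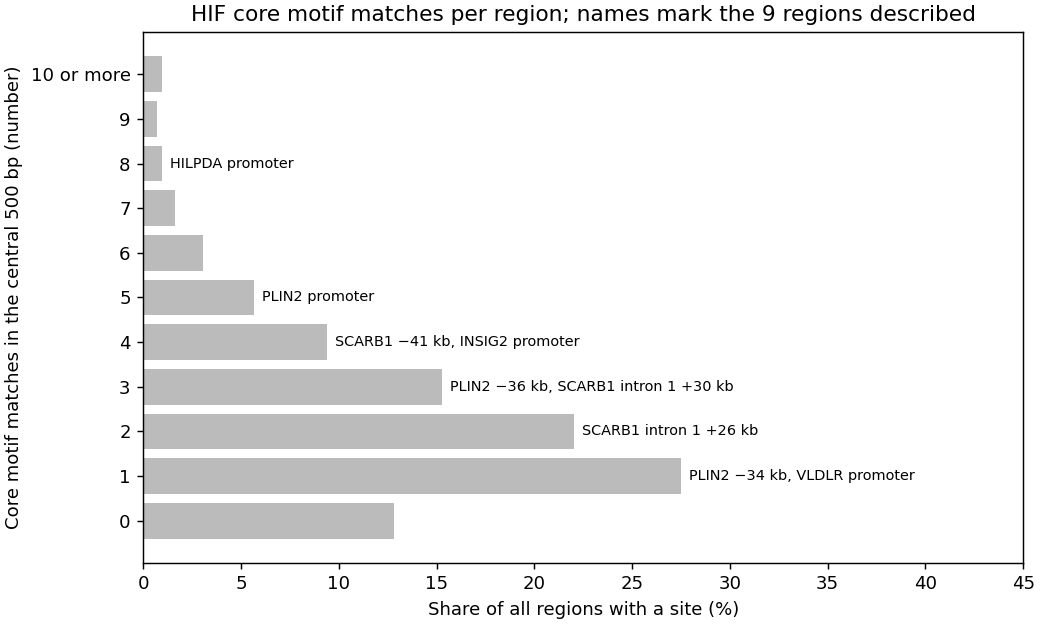
Percentage of the 3837 regions with a site by the number of core motif matches in the central 500 bp, with the 9 regions of these genes named beside their number. HILPDA has 8 matches, and the PLIN2 upstream region and VLDLR have 1.

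Other genes of the same pathways were counted by the same rule. Of 35 other lipid droplet genes, PC-3 and T47D cells each had a site at 4 (11.4%), A549 cells at 1 (2.86%) and HCT-116 cells at 6 (17.1%). Of 40 other sterol genes, PC-3 and A549 cells each had a site at 2 (5%), T47D cells at 7 (17.5%) and HCT-116 cells at 6 (15%). The shares of all protein-coding genes were 7.08% for PC-3, 16.0% for T47D, 6.02% for A549 and 14.2% for HCT-116 cells. No gene of either list had a site in all 4 lines. Among all genes this share was 2.46%, so lists of this size may well hold none. At least 1 line had a site at 9 of the 35 lipid droplet genes (25.7%) and 13 of the 40 sterol genes (32.5%), beside 24.4% of all genes. CAV1, which encodes a caveolar protein found on droplets, had a site in its window in PC-3, A549 and HCT-116 cells. The closer of its 2 regions covered its start. LPIN3, a relative of LPIN1, had a region over its start with sites of T47D and HCT-116 cells, which ranked at 47.04% to 76.9% of their lists. PLIN1, the adipocyte relative of PLIN2, had a site in PC-3 and HCT-116 cells, but the nearest start to it was of PEX11A. The region closest to the start of BSCL2, needed for droplet formation, was likewise nearest to HNRNPUL2. That of CIDEA, which enlarges droplets, was nearest to TUBB6. Among sterol genes, SREBF1, which encodes the SREBP-1 proteins, had 2 regions, the closer of them over its start. Its window had a site in T47D and HCT-116 cells, whose highest peaks there stood at 27.2% to 31.8% of their lists. LRP1, a receptor of lipoprotein remnants, had a site in PC-3, A549 and HCT-116 cells, the closest region being 432 bp from its start. NR1H3, which encodes the oxysterol receptor LXRα, had a site in PC-3 and A549 cells nearest to ACP2.

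The genes most like each of the 5 bound genes over the 8 libraries were found by the mean absolute difference of the score percentile of the highest peak, among coding genes with a site. LPIN1 and INSIG1, without a peak in any library, were not compared. Closest to HILPDA were VGLL4 at 1.03 percentage points, DYNC2I1 at 1.08 and GBE1 at 1.21, the last of which encodes the glycogen branching enzyme and had its peak over the start. SCARB1 was followed by the locus of C8orf58 at 2.09, SLC28A1 at 2.28 and ALKBH5, an RNA demethylase, at 2.53. The distance from start to peak was 1 bp, 29451 bp and 0 bp at these, respectively. INSIG2 was followed by a gene model at the PSMA1 and COPB1 locus (ENSG00000256206) at 2.88, KISS1R at 3.87 and KDM6B, a histone demethylase, at 4.17. The nearest to VLDLR were LHX5 at 7.73, FAM13A at 9.94 and FGF11 at 10.1, each with a site in 3 lines. Their distance from start to peak was 5761 bp, 232705 bp and 0 bp, respectively. ALKBH5, KISS1R, KDM6B and FGF11 name loci whose highest peaks are shared with other coding genes. PLIN2 had TBC1D8 at 6.11, DNAH5 at 8.16 and CDCP1 at 9.18, each with a site in 3 lines rather than 4. Here the distance from start to peak was 25608 bp, 90755 bp and 21176 bp, respectively. Likeness was judged by score percentile and not by position. The differences of percentile describe 8 libraries of 4 lines and are not tests. Peaks show where HIF-1β was found on DNA, and expression of the genes was not measured here.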

How the data were processed

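HIF-1β ChIP-seq peaks were analysed in PC-3, T47D, A549 and HCT-116 cells. According to the submitters' processing notes, reads were handled with Trim Galore 0.3.3, BWA 0.7.5a-r405, SAMtools 0.1.19, Picard 1.106 and bedtools 2.17.0 on GRCh37, and MACS was run by the authors on single libraries. The deposited score of each peak has no header that defines it, and the step by which peaks were also sought with T-PIC cannot be seen in the lists. Depth is not given in the sources used here.

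Peaks were set against GENCODE 44 on GRCh37, with the start of the canonical transcript, in Python 3.11.15 with NumPy 2.4.6, pysam 0.24.0 and Matplotlib 3.10.9, and samtools 1.23.1. A site needed an overlap of 1 bp or more between the replicates of a line. For each gene the highest-scoring peak of the window was ranked within its library, and the pairing test was run with Benjamini-Hochberg adjustment over all genes with a peak in every library. The site rule and the pairing test were checked on simulated data. The 7 genes, the lists of other genes and the tests were chosen with earlier results of these data known. Genes were named if they were among the 7, had the nearest start to one of their regions, were listed genes with sites in 2 or more lines, or were one of the 3 loci most alike. GREB1, PEX11A, HNRNPUL2, TUBB6 and ACP2 were named after their positions were seen. The gene with the nearest start to 1 region is not reported here. Alternatives were other overlaps, windows and score limits, peaks of single replicates, the omission of each replicate, and other scales of the score.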

Additional observations from a re-analysis of the deposited data

How the results depend on the processing

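The number of the 7 genes with a site was 5, 5, 5 and 4 in PC-3, T47D, A549 and HCT-116 cells and moved by at most 1 under every alternative, always through PLIN2. With the higher-scoring 50% of each list PLIN2 was lost in T47D and HCT-116 cells, as it was with the 1000 highest peaks of each list, an alternative chosen after seeing the data. In A549 cells it was lost with 5 kb around the gene body or with 25 kb around the canonical start alone, since its site there lies upstream. Leaving out 1 replicate of a line changed no count, with values from 4 to 5. A peak of either replicate gave 11 regions in place of 9. In the test between lines, no gene had an adjusted p under 0.05 with ranks, with log10 scores, with 5 kb around the gene body or over merged regions (the last chosen after seeing the data), and the number with an unadjusted p under 0.05 was 226, 120, 93 of 301 and 64 of 233, respectively. The number of pairings was the same in each, so an adjusted p under 0.05 again needed many genes at the smallest possible p together. With ranks, p was 0.029 for PLIN2 and 0.086 for INSIG2 (exact permutation test), and with log10 scores both had 0.0095. Over the reported setting, ranks and log10 scores, adjusted p ranged from 0.088 to 0.14 for PLIN2 (exact permutation test). PLIN2 was not among the genes tested with 5 kb around the gene body or over merged regions. For INSIG2, tested in every setting, adjusted p ranged from 0.11 to 0.14. The core motif was found in 8 of the 9 regions in the central 200 bp. No paired analysis was possible because the replicates are numbered 1 and 2 in PC-3 and T47D cells and 2 and 3 in A549 and HCT-116 cells, so that the 4 lines share a single number. Without reads, a gene with no peak cannot be told from one whose binding was too weak for the score limit.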
